A study of Mus musculus with 4 samples.

Results

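Protocadherins are single-pass membrane proteins of the cadherin superfamily whose extracellular cadherin repeats bind calcium and the same protein on a neighbouring cell. In the mouse most of them are encoded in the neighbouring alpha, beta and gamma clusters, where each alpha or gamma transcript joins its own large first exon to a few short exons shared by the whole cluster, while each beta gene is complete in a single large exon. The non-clustered members, among them the delta-1 and delta-2 groups, are scattered over the genome. The family is best known for cell recognition and wiring in the nervous system, and in epidermis it stands beside the classical and desmosomal cadherins that hold keratinocytes together.

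The family was examined in lists of N6-methyladenosine (m6A) sites of epidermal keratinocytes from mice at postnatal day 0. Members were all genes with a site in either list whose gene name begins with Pcdh, which gave 25 of the 6625 genes with a site. RNA fragments recovered with an m6A antibody (IP) were set by the authors against unselected fragments (input), and each list gives a position, a fold enrichment of IP over input, a -10 log10 p and, as FDR, a false discovery rate for each site. The 4 libraries were control input and control m6A IP with 2 of each, all untreated and of genotype K14Cre, Mettl14F/+, so every library carried the Cre driven by the keratin 14 promoter of basal keratinocytes and an F allele of the m6A methyltransferase gene Mettl14. No other genotype was compared, and nothing in the labels says whether replicates came from separate animals. The lists, called list 1 and list 2, are not tied to replicate numbers and carry no read counts, so library depth is unknown and no site has a spread between replicates. Positions are on GRCm38, counted from 1.

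Genes of keratinocytes and of other cell types had sites in these lists, and sites alone do not measure expression. Sites were present in 8 of 12 keratinocyte markers, and 6 of the 12 were in both lists, while Krt14, Krt1, Krt10 and Perp had none. A site was also present in 7 of 8 fibroblast, 4 of 7 melanocyte, 3 of 7 endothelial, 4 of 8 nerve and Schwann cell and 2 of 5 immune markers, where 28.9% of all protein-coding genes had a site and 39.4% of all genes with a site were in both lists. Which cells the protocadherin transcripts came from was not tested.

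Of 70 protocadherin genes in the RefSeq gene table, 25 had a site and 45 had none. Over all protein-coding genes of that table the share was 28.9%, given as background only because having a site is how the members were chosen. None of the 14 alpha genes had a site, and the alpha cluster, chromosome 18, 36930285 to 37188897, held no site of any gene in either list. Sites were found in 5 of 22 beta genes and 12 of 22 gamma genes. Of the 12 non-clustered genes 8 had a site: Pcdh1 and Pcdh9 of the 4 delta-1 genes, Pcdh8, Pcdh10, Pcdh17 and Pcdh18 of the 5 delta-2 genes, and Pcdh15 and Pcdh20 of the other 3. Those without a site were Pcdh7 and Pcdh11x (delta-1), Pcdh19 (delta-2, mutated in a human epilepsy) and the endothelial protocadherin gene Pcdh12.

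**Figure D1:**
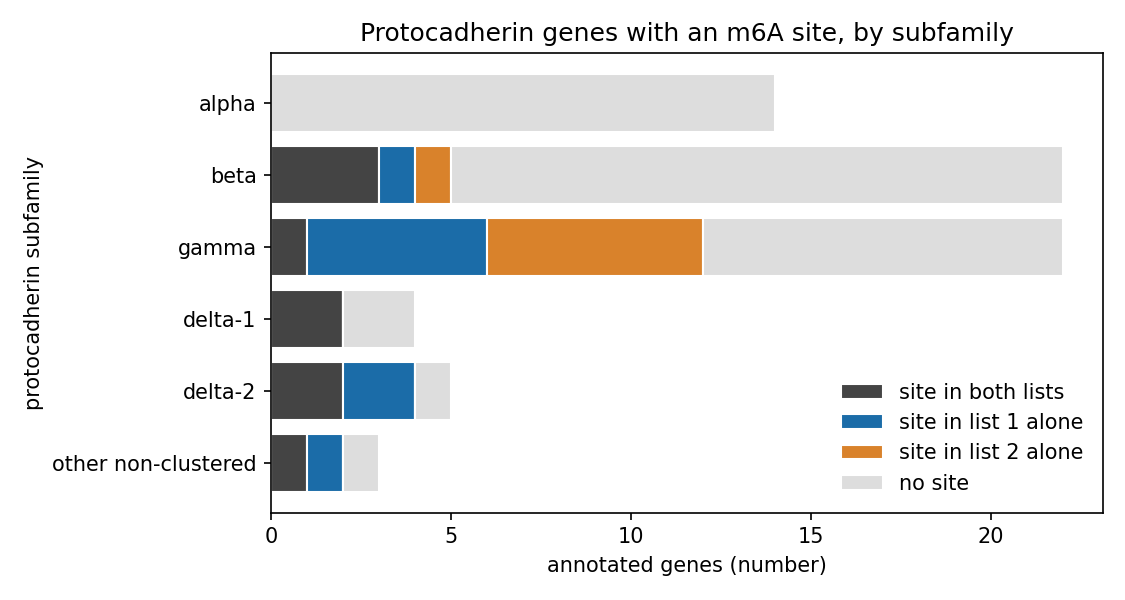
Number of annotated protocadherin genes (horizontal axis) in each subfamily (vertical axis), split by whether a site was in both lists, in list 1 alone, in list 2 alone or in neither. All 14 alpha genes lack a site, 11 of the 12 gamma genes with a site have it in a single list, and no non-clustered gene has it in list 2 alone.

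A site in both lists was present in 9 of the 25 members (36.0%, 95% Wilson interval over genes 20.2 to 55.5), against a background of 39.4% of all genes with a site. A site that overlapped between the lists by at least 1 base was present in 8 members (32.0%, 17.2 to 51.6), against 27.2% of all genes with a site. Both shares lay near their backgrounds. Among subfamilies, 3 of 5 beta, 1 of 12 gamma and 5 of 8 non-clustered members were in both lists. The classical and desmosomal cadherins had 11 of 18 genes with a site and 6 in both lists, and the large atypical cadherins had 5 of 9 and 4 in both, where 28.9% of protein-coding genes had a site. These differences between families and subfamilies were not tested.

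Counted as sites, list 1 held 22 in 18 members and list 2 held 19 in 16 members. Their folds had a median of 19.1 in list 1, with quartiles at 3.19 and 157.8, and of 13.35 in list 2, with quartiles at 5.35 and 107.8, beside 11.6 and 11.9 over all sites of the lists. Without the clustered genes it was 4.78 and 22.0, so in list 1 its place above or below that of all sites turned on the clustered genes. A fold over 100 was present at 7 of 22 and 5 of 19 member sites, against backgrounds of 14.5% and 12.7%. A fold under 5 was present at 10 of 22 and 5 of 19, against 30.9% and 27.9%, so list 1 held protocadherin sites at both ends of the range. The p was 1e-05 or less at 12 of 22 member sites in list 1 (background 73.7%) and 13 of 19 in list 2 (background 76.9%). The FDR was below 100% at 10 of 22 (background 40.8%) and 11 of 19 (background 48.5%), and the lowest FDR of a member was 55.81% and 59.47%, where the lowest of any site was 55.67% and 51.16%. No test was made of these shares. The lowest member folds, just inside the lowest fold of 2 that the lists hold, were 2.21 at Pcdh9 in list 1 and 2.12 at Pcdhga7 in list 2.

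**Figure D2:**
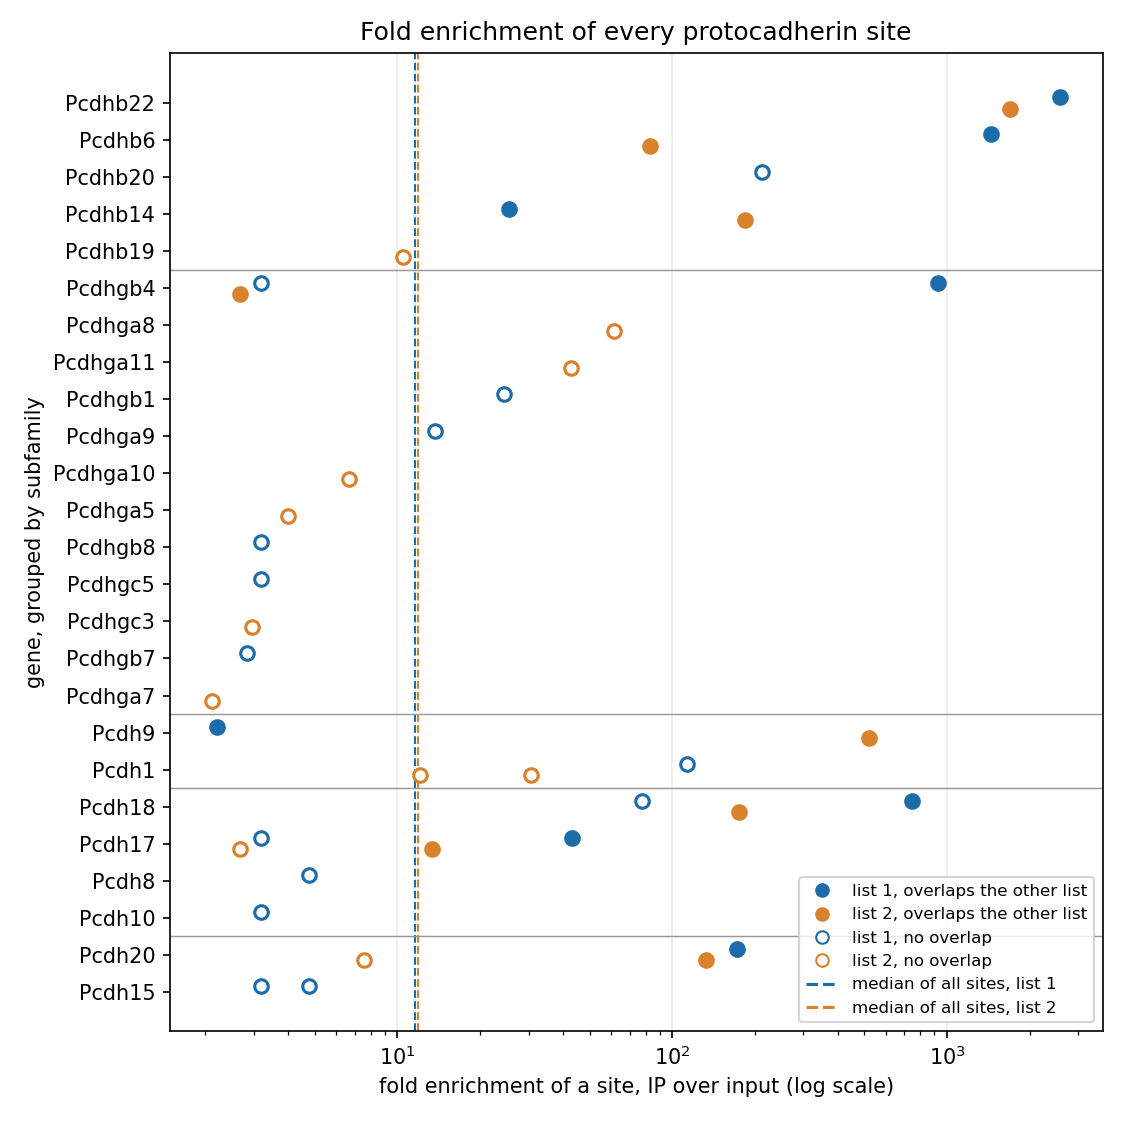
Fold enrichment of each protocadherin site (horizontal axis, log scale) by gene (vertical axis, grouped by subfamily from beta to the other non-clustered genes), with filled points for sites that overlap a site of the other list. Dashed lines are the medians of all sites, 11.6 in list 1 and 11.9 in list 2. Of the 5 beta genes, 4 have a site above both lines, while most gamma sites lie below them.

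The beta cluster held the most enriched sites of the family. Beta genes are close relatives of each other, and the lists do not say how reads that fit several genes were placed, so the gene named at a beta site is uncertain. Pcdhb22 had a site at chromosome 18, 37518279 to 37518630, with a fold of 2578.99 in list 1, and at 37518282 to 37518628 with 1696.06 in list 2. When genes were ordered by their highest site, Pcdhb22 stood at place 6 among the 4187 genes of list 1 and at place 9 among the 5045 of list 2. The -10 log10 p was 3100 in each list, the value at which many sites are tied, and the FDR was 55.81% and 59.47%. The interval began 74 and 71 bases before the lower end of the annotated gene, which starts at 37518353.

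Pcdhb6 had nearly coinciding sites on chromosome 18, from 37335059 to 37335431 with a fold of 1448.89 in list 1 and from 37335059 to 37335432 with 82.8 in list 2. The values were 17.5 times apart although the ends differed by 1 base at most. Pcdhb14 showed the opposite order. Its sites at 37448743 to 37448942 (list 1, fold 25.5, FDR 100%) and 37448510 to 37448846 (list 2, fold 184.3, FDR 61.69%) shared 104 bases and were 7.23 times apart.

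Pcdhb20 had a site in list 1 alone, at 37504492 to 37504929 (fold 212.73, FDR 55.81%). Pcdhb19 had a site in list 2 alone, at 37503029 to 37503392 (fold 10.51, FDR 100%). This interval lay outside the annotated Pcdhb19 gene, 1318 bases past its upper end and 871 bases before the lower end of Pcdhb20, so its gene name rests on the authors' transcript. The median fold of the 4 beta sites in each list was 830.8 in list 1 and 133.6 in list 2.

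The gamma cluster had more genes with a site than the beta cluster, most of its sites had a low fold, and 1 gene recurred. Its 7 sites in list 1 had a median fold of 3.19 and its 7 sites in list 2 a median of 4.01, with an FDR of 100% at 4 and 5 of them. The single gamma gene in both lists was Pcdhgb4, with the same interval of 88 bases in each, chromosome 18, 37720554 to 37720641. There the fold was 924.49 in list 1 (-10 log10 p 3100) and 2.67 in list 2 (-10 log10 p 7.2, FDR 100%), the widest difference of the family at 346 times. Pcdhgb4 had another site in list 1 at 37720908 to 37721307 with a fold of 3.19.

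The other gamma genes of list 1 were Pcdhgb7 (fold 2.84), Pcdhgb8, annotated as a transcribed pseudogene (3.19), and Pcdhgc5 (3.19), all with an FDR of 100%. Those of list 2 were Pcdhga8 (fold 61.43, FDR 76.52%), Pcdhga11 (42.74, FDR 95.48%), and at an FDR of 100% Pcdhga10 (6.68), Pcdhga5 (4.01), Pcdhgc3 (2.95) and Pcdhga7 (2.12). The genes found in list 1 and those found in list 2 lie interleaved along the cluster.

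The annotated gamma spans overlap, so each gamma site named above lay in several of them, from 7 at Pcdhga5 to 22 at Pcdhgc5. How reads that fit several genes were placed is not stated, so those gene names are uncertain as well. Another 2 gamma sites, both in list 1, lay in the part shared by nearly all gamma genes and could not be given to a gene. The site named Pcdhgb1 lay at 37840973 to 37841319 (fold 24.5, -10 log10 p 3100, FDR 55.81%), and that named Pcdhga9 at 37841818 to 37841873 (fold 13.71, FDR 94.81%). Each overlapped the annotated spans of 21 of the 22 gamma genes, near the upper end that 21 of them share to within 10 bases. The first lay wholly within all 21, and the second, which reached 10 bases past the annotated end of Pcdhga9, lay wholly within 9. The exons common to the cluster lie at that end. The names are therefore 1 choice among 21 genes, and list 2 had no site there. Without these sites 23 members remain. The 9 genes in both lists could not change, because neither named gene had a site in list 2.

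The other 12 gamma sites and 7 of the 8 beta sites began near the lower end of the named gene. No background share was computed for this, and beta genes are short, with a median span of 3417.5 bases. The 12 gamma sites were set apart by this rule, as those whose named gene had the lower end nearest below the site. Counted with the 7 beta sites that overlapped their gene, 5 of them wholly inside it, 19 sites of clustered genes began between 74 bases before and 1379 bases after the lower end of the gene, with a median of 853 bases. Of the 22 sites of clustered genes, the remaining 3 were the 2 in the shared gamma part and the Pcdhb19 site. These began 160701 (Pcdhgb1), 104882 (Pcdhga9) and 6031 (Pcdhb19) bases past the lower end of the named gene. The 19 were thus chosen partly by position, so their nearness to the lower end is a description and was not tested. In such genes the large first exon encodes the extracellular cadherin repeats, but exon annotation was not used here, so the exon of a site is not given.

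**Figure D3:**
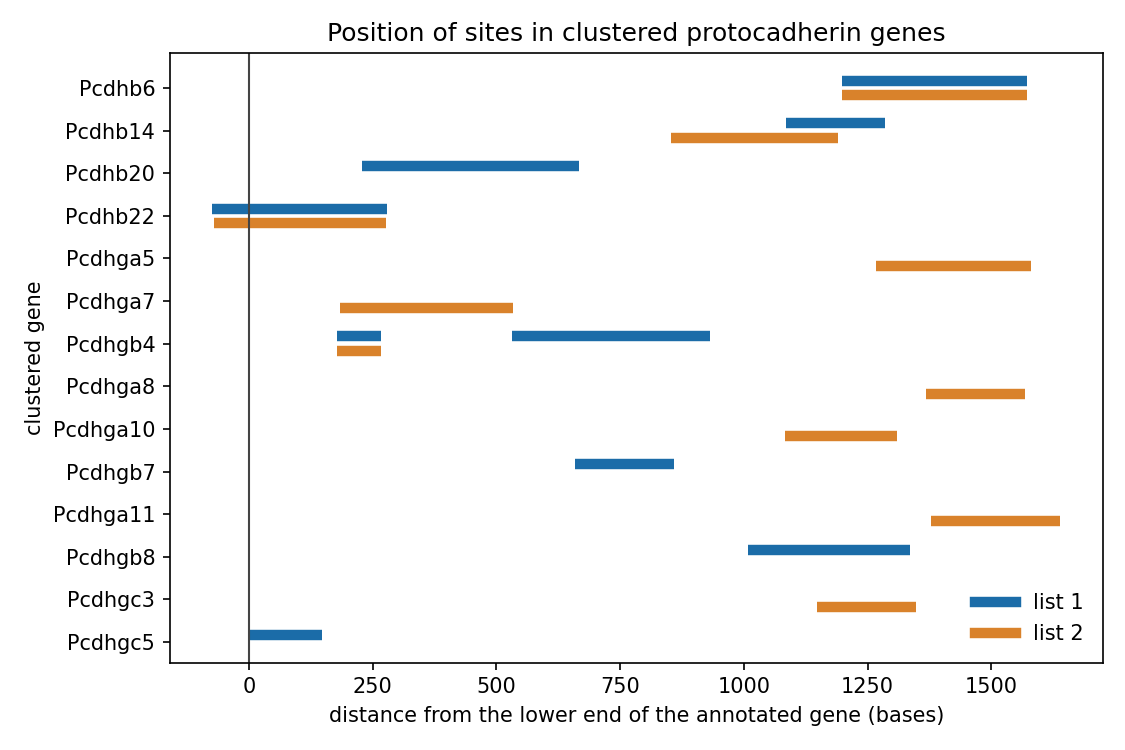
Extent of each site in a beta or gamma gene, as distance in bases from the lower end of the annotated gene (horizontal axis), by gene (vertical axis). The 19 sites begin between -74 and 1379 bases, and the intervals of list 1 and list 2 coincide in Pcdhb6, Pcdhb22 and Pcdhgb4. The Pcdhb19 site and the 2 sites in the shared gamma part, which began farther from the lower end, are not drawn.

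Among the non-clustered genes, Pcdh18 carried the strongest site in list 1. Pcdh18 is a delta-2 protocadherin whose cytoplasmic part binds the adaptor Dab1 in the mouse. Its site was 1087 bases long in list 1 and 1103 in list 2 and lay on chromosome 3, 49756124 to 49757210 in list 1 with a fold of 746.55 (FDR 55.81%) and 49756120 to 49757222 in list 2 with 175.49 (FDR 60.12%). On the minus strand the gene begins at 49757383, so the site started 173 and 161 bases into the annotated gene. List 1 held another site farther into the gene at 49755403 to 49755901 (fold 77.46, FDR 64.63%), which list 2 did not.

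Pcdh20 had the closest values of the family. Its site on chromosome 14 had a fold of 172.67 at 88468477 to 88469269 in list 1 and 132.7 at 88468892 to 88469279 in list 2, with a -10 log10 p of 3100 in each. The upper ends differed by 10 bases, but the list 1 site was 793 bases long and the list 2 site 388. A weaker site at 88467743 to 88467942 was in list 2 alone (fold 7.54, FDR 95.01%).

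Pcdh9, a delta-1 gene of the developing cortex, had an overlapping site whose strength was far from equal. At chromosome 14, 93887959 to 93888288 the fold in list 1 was 2.21 with a -10 log10 p of 5.37 and an FDR of 100%. At 93887459 to 93888158 in list 2 it was 520.61 with a -10 log10 p of 3100 and an FDR of 59.47%. The sites shared 200 bases and were 236 times apart, so in list 1 Pcdh9 was among the weakest members and in list 2 the next after Pcdhb22.

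Pcdh17, a delta-2 gene of the basal ganglia, had the most sites, 2 in each list. The overlapping site lay near the end of the gene, 89322 bases past its start, at chromosome 14, 84532885 to 84533226 with a fold of 43.04 in list 1 and 84532885 to 84533236 with 13.35 in list 2, both at an FDR of 100%. Its other sites were 84477567 to 84477766 (list 1, fold 3.19) and 84444915 to 84445114 (list 2, fold 2.67), each 200 bases long.

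Pcdh1, a delta-1 protocadherin known from airway epithelium, was the only member in both lists without an overlapping site. List 1 had a site at chromosome 18, 38189422 to 38189766 (fold 113.17, FDR 87.16%). List 2 had 38198423 to 38198804 (fold 12.06, FDR 89.7%) and 38199089 to 38199439 (fold 30.6, FDR 61.12%). The nearest sites of the lists were 8656 bases apart within an annotated gene of 26135 bases.

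The remaining non-clustered members were in list 1 alone, each with a weak site at an FDR of 100%. Pcdh15, which forms the tip link of inner ear hair cells, had sites at chromosome 10, 74379384 to 74379412 (fold 4.78) and 74626775 to 74626843 (3.19). Pcdh8, known as paraxial protocadherin in the frog, had one at chromosome 14, 79769222 to 79769517 (4.78). Pcdh10, known as OL-protocadherin, had one at chromosome 3, 45378997 to 45379736 (3.19).

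For genes whose strand was given by the RefSeq promoter table, which covered 7 of the 8 non-clustered members, the distance to the 5′ end of the annotated gene could be read. In list 1, 6 of 10 such sites lay within 5000 bases of the 5′ end, and in list 2 this was 5 of 6. Over all sites of genes in that table the backgrounds were 19.9% and 18.0%. The shares were not matched for gene length. The Pcdh8 gene is 4541 bases long, so its site had to lie within the limit, and the Pcdh20 gene is 6654 bases long. The Pcdh9 sites lay just inside the limit, at 4546 and 4676 bases. The limit was chosen after the positions were seen and no test was made. The exceptions were the 2 sites of Pcdh15, the overlapping site of Pcdh17 in each list and its other site in list 1.

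The folds of the lists were compared at the 8 overlapping sites. They lay within 2-fold of each other at 2 sites, Pcdh20 and Pcdhb22, against a background of 51.8% of 2202 pairs. They were more than 4-fold apart at 5 sites, namely Pcdhgb4, Pcdh9, Pcdhb6, Pcdhb14 and Pcdh18, against 24.9%. The median difference was 5.54 times, beside 1.93 times over all pairs, and list 1 was higher at 6 of the 8, against 52.2% of all pairs. Both ends agreed within 10 bases at 4 of the 8 sites, against 56.9% of all pairs. The pairs were not matched for strength. Each of the 8 had a fold of 43.04 or more in at least 1 list. The 2202 pairs include many with low folds in both lists, such as Kdr (3.19 and 2.67), which cannot lie far apart. With 8 pairs and no spread between replicates, these comparisons are a description and were not tested.

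**Figure D4:**
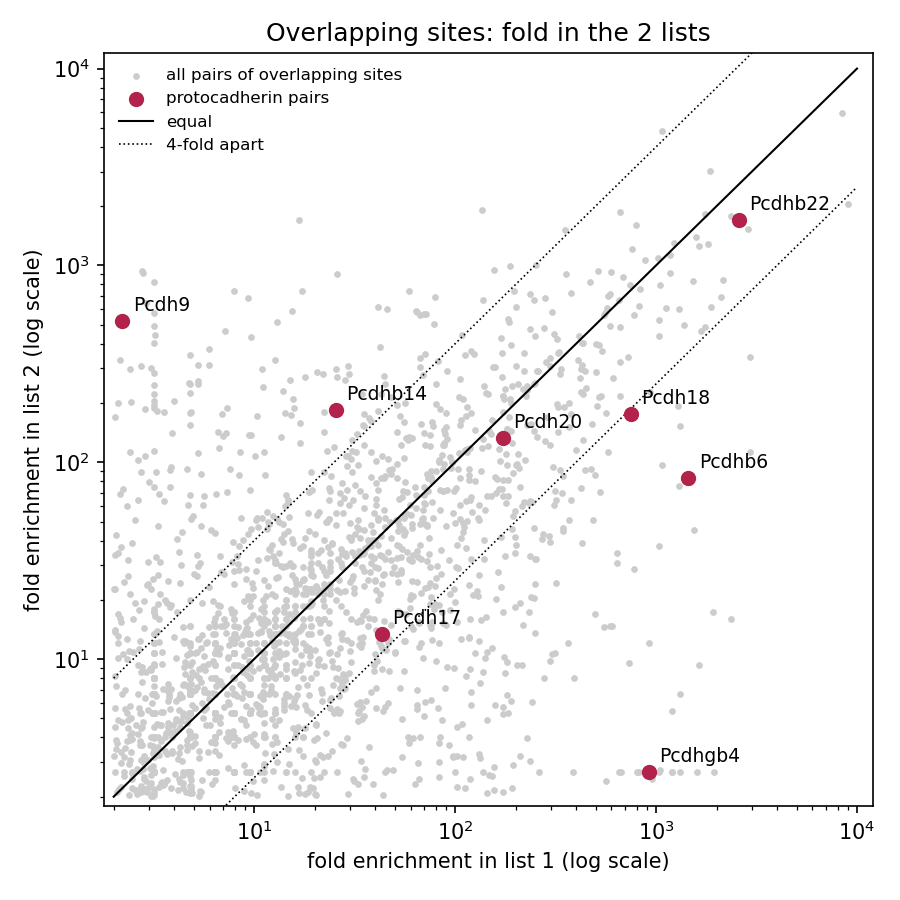
Fold enrichment in list 1 (horizontal axis) and list 2 (vertical axis), both on log scales, for 2202 pairs of overlapping sites (grey) and the 8 protocadherin pairs (red). The solid line marks equal values and the dotted lines values 4-fold apart. Pcdh20 and Pcdhb22 lie near the solid line, and Pcdh9 and Pcdhgb4 lie farthest from it.

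Sites of either list overlapped the other at the site level in 8 of 22 protocadherin sites of list 1 (36.4%, 95% Wilson interval over sites 19.7 to 57.0; background 36.7%) and in 8 of 19 of list 2 (42.1%, 23.1 to 63.7; background 26.8%). Both intervals hold the background share, but this is not a test, because some genes gave more than 1 site and all sites were counted as independent. Protocadherin sites had a median length of 336 bases in list 1 and 347 in list 2, beside 183 and 169 over all sites. The shortest was the 29-base site of Pcdh15 and the longest the Pcdh18 site of list 2 with 1103.

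Genes that act with or on protocadherins were counted from 4 lists, beside the 28.9% of protein-coding genes that had a site. Of the regulators of clustered promoter choice and their cohesin partners, 9 of 10 were found in either list and 8 in both, and Dnmt3b, a DNA methyltransferase gene, in neither. Overlapping sites were present in the cohesin genes Smc1a (folds 83.42 and 99.72), Stag1 (2.22 and 73.04) and Stag2 (6.45 and 11.13), in Wiz (3.19 and 4.01) and in Smchd1. The folds of Wiz and Smchd1 are low values that recur at many sites. In list 1 a fold of 3.19 was held by 557 sites, and in list 2 folds of 4.01 and 2.67 by 241 and 592. The insulator gene Ctcf had 1 site in each list, with folds of 2.61 and 39.83, that did not overlap. Of the WAVE complex, an actin regulator that binds delta-2 protocadherins, 3 of 9 genes had a site, and Cyfip1 alone was in both lists. Of the proteases that cleave protocadherins, 3 of 6 had a site, none in both lists. Of the kinases and adaptors, 4 of 8 had a site, with 3 in both lists. The kinase gene Fyn had an overlapping site (4.78 and 4.01), likewise at recurring low values. Over the 4 lists, 12 of the 19 genes with a site were in both site lists (63.2%, 41.0 to 80.9), beside the background of 39.4%, and 6 of the 19 had an overlapping site (31.6%, 15.4 to 54.0), beside 27.2%. The regulators made up 8 of the 12, and the other 3 lists had 4 of 10 in both. The lists hold genes with textbook roles, were set with earlier results of these data known, and were not tested.

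For comparison, genes of the related families were ordered by their overlapping site with the highest mean fold, 1 site per gene. Among the highest were Fat1 (247.79 and 670.33), Celsr1 (10.23 and 51.03) and Celsr2 (22.82 and 26.89), large atypical cadherins of cell polarity. The desmosomal cadherin gene Dsc3 (41.03 and 9.75) and the P-cadherin gene Cdh3 (9.08 and 15.37) were there too. Fat1 had further overlapping sites, the next at 179.12 and 109.61.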

How the data were processed

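The authors called sites with MACS, as the peak names of the deposited lists show, and placed them on GRCm38, per the submitters' processing notes. Which libraries entered each list, any pooling, and the aligner, filters and annotation were not given in the sources used here. Fold enrichment is a ratio (IP over input) computed by the authors. The score, per the file headers, is -10 log10 of the p-value. The FDR is deposited as a percent. Starts were deposited counting from 0, and 1 was added. Site values served to describe and rank sites within a list. At overlapping sites the folds of both lists were also set side by side, as a description only.

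Members were matched by gene name, and all 25 were found in the RefSeq gene table of GRCm38.p6. Sites sharing 1 or more bases of a chromosome were called overlapping, without regard to strand. Pairs were taken by largest overlap, each site once. Intervals are 95% Wilson intervals and cover counting error only. No test was run, because members were chosen by having a site and the lists carry no counts. The overlap step was checked on shifted copies of list 1 sites, which had to overlap, and on sites moved far away, which could not. Near misses were not among them.

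Members and gene lists were chosen with earlier results of these data known. Values are given for every member, and for up to 4 genes with an overlapping site per related list, by mean fold; genes named beyond these were chosen after their values were seen. Alternatives were stricter sites (p, FDR, the higher-fold 50% of each list), other overlap rules, membership by gene span, distinct intervals, the highest site per gene, each list alone, and leaving out the clustered genes or, added after the data were seen, the shared gamma part. Sequences at the sites were not analysed here. Python 3.11.15, pandas 2.3.3 and numpy 2.4.6 were used.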

Additional observations from a re-analysis of the deposited data

How the results depend on the processing

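Among the recomputed values, 8 of 14 counts and 4 of 14 medians stayed within 1.5 times the value reported. These totals include leaving out the shared gamma part, whose sites were in list 1 alone. That setting could change neither the counts nor the list 2 median, and it gave the only list 2 median counted as within 1.5 times. The totals also include membership by gene span, which dropped only the Pcdhb19 site of list 2. It therefore left both counts and the list 1 median as they were. The interval of the median over so few sites is wide (3.19 to 172.67 in list 1, 4.01 to 132.7 in list 2), and the list 1 median with an FDR below 100% alone fell outside it. The members in both lists, 9 in all, fell to 5 with an FDR below 100% (Pcdh1, Pcdh18, Pcdh20, Pcdhb6 and Pcdhb22) and were 5 without the clustered genes. The 8 overlapping sites became 4 with an FDR below 100%, 4 without the clustered genes, 5 with a reciprocal overlap of 50% and 1, in Pcdhgb4, with identical intervals. The median fold of list 1 rose to 192.7 with an FDR below 100%. It was 142.9 with a p of 1e-05 or less or in the higher-fold 50%, and 4.78 without the clustered genes. These medians differ because sites were kept by strength or by subfamily. In the stricter sets 7 of 15 (p), 5 of 13 (FDR) and 7 of 14 (fold) members were in both lists, beside 34.6%, 25.9% and 30.7% of all genes. In list 2 the median ranged from 13.35 to 82.8. Leaving out a list cannot change the median of the other (19.1 and 13.35), no interval occurs more than once, and no count over both lists can be given from a single list. No paired analysis was possible because the lists hold no values per library. Depth is unknown, so the precision of a single fold cannot be given.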

Other observations

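Low folds took a few recurring values. In list 1 a fold of exactly 3.19 was held by 557 sites (9.22%), among them 6 of the 22 protocadherin sites, in Pcdh10, Pcdh15, Pcdh17, Pcdhgb4, Pcdhgb8 and Pcdhgc5, and a fold of 4.78 by 216 sites, among them those of Pcdh8 and Pcdh15. In list 2 a fold of 2.67 was held by 592 sites (7.18%), among them those of Pcdh17 and Pcdhgb4. There a fold of 4.01 was held by 241, among them that of Pcdhga5, and 6.68 by 100, among them that of Pcdhga10.

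The deposited annotation listed homophilic cell adhesion for 8 of 25 members and 31 of all 6625 genes, cell adhesion for 6 of 25 and 152, calcium-dependent cell-cell adhesion for 3 of 25 and 5, and calcium ion binding for 5 of 25 and 191.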
